A study of Mus musculus with 12 samples.

Results

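Anpep, Enpep, Dpp4, Mme, Ace and Ggt1 encode enzymes known from the brush border of the kidney proximal tubule, and Aoc1 was listed with them. The transcripts of these 7 genes were followed in a mouse proximal tubule cell line after 4-hydroxytamoxifen. These 7 genes were chosen by name, with earlier results of these data known, from the 55491 genes of the deposited tables, and each name matched 1 gene. All 7 were lower than in untreated cells at each of 3 times after treatment, but to very different degrees. By day 12 the mean of Aoc1 stood at 3.02% of its untreated value, while that of Enpep stood at 87.5%.

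The brush border is the dense array of microvilli on the luminal face of proximal tubule cells. Its membrane carries ectoenzymes, with the active site facing the tubular lumen, that cut filtered peptides so that the products can be taken up by the cell. Anpep (aminopeptidase N) and Enpep (aminopeptidase A) remove single residues from the amino end, the latter with a preference for acidic ones. Dpp4 removes dipeptides from the amino end, Mme (neprilysin) cuts inside peptides, and Ace (angiotensin-converting enzyme) removes dipeptides from the carboxyl end. Ggt1 (gamma-glutamyltransferase) starts the breakdown of extracellular glutathione and is a transferase by class. Aoc1 (diamine oxidase) is a copper amine oxidase that oxidises histamine and putrescine, and is no peptidase. It is not counted here among the ectoenzymes of the brush border, and transcript counts do not show where a protein lies.

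The cells were PT-22, a proximal tubule epithelial line labelled Pax2-/-, Pax8fl/fl, Rosa-CreERT2, grown in medium with 3% serum. All 4 groups therefore share the Pax2 and floxed Pax8 alleles and a tamoxifen-activated Cre driven from the broadly active Rosa locus. To deplete PAX8, the submitters exposed confluent cultures to 1 µM of the drug over 2 days, and polyadenylated RNA was sequenced from untreated cells (control) and from cells 2, 6 and 12 days after treatment. Each group has 3 libraries, lettered A, B and C. The labels do not say that these came from separate cultures, and p-values thus reflect library-to-library spread alone, which may be technical. All come from 1 line, and no vehicle-treated or time-matched untreated group is described, so that any loss of PAX8, the drug, Cre activity and days in culture cannot be told apart.

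Library totals ran from 4326667 to 11654959 counts. Pax8 transcript was not lower after treatment: scaled to library size (CPM), it averaged 225.0 ± 3.46 (SD, n = 3) in control, 401.9 ± 51.1 on day 2, 255.6 ± 10.9 on day 6 and 241.7 ± 10.5 on day 12. The floxed exons are not named in the labels, and whole-gene counts of Pax8 therefore do not check the depletion. Pax2 transcript was counted in a line labelled Pax2-/-, with means of 46.8 CPM ± 5.78 in control, then 71.6 ± 11.7, 79.0 ± 6.45 and 50.5 ± 3.71 on days 2, 6 and 12, and which part of Pax2 is deleted is likewise not named. Of 18 proximal tubule markers, 5 averaged at least 1 TPM (a transcript abundance corrected for length and library size) in control (Lrp2, Hnf4a, Aqp1, Ass1 and Slc4a4), and 6 were at 0 in all 3 control libraries, among them the proximal tubule phosphate and glucose transporter genes Slc34a1 and Slc5a2. The summed TPM of the 18 markers was 184.4 to 199.3 in control, 378.0 to 420.0 at day 2, 672.0 to 843.0 at day 6 and 492.7 to 597.2 at day 12. Aqp1 made up most of this rise, with a mean of 108.4 TPM in control and 343.9, 700.1 and 427.1 on days 2, 6 and 12. From control to day 6, Lrp2 went from 26.0 to 24.1 TPM, Slc4a4 from 21.3 to 8.54, Hnf4a from 4.59 to 0.117 and Ass1 from 32.3 to 33.8. Of the 6 tested markers, 3 (Lrp2, Hnf4a and Slc4a4) were called lower at each day, while 1, 1 and 2 were called higher at days 2, 6 and 12. Aqp1, a water channel gene, averaged 173.2 CPM ± 3.37 in control and 1044 ± 137.2 at day 6, and Ass1, of arginine synthesis, 30.4 ± 3.51 in control and 100.1 ± 4.38 at day 12. The summed TPM of 9 fibroblast and smooth muscle markers went from between 6.54 and 8.43 in control to between 337.1 and 425.3 at day 12, with 4 of 5 tested markers called higher there, while Pdgfra and Col3a1 were at 0. Most of the day 12 sum was Acta2 (mean 294.4 TPM) and Tagln (63.05), with Dcn at 18.14, Col1a1 at 1.113 and Pdgfrb at 0.36. Dcn and Pdgfrb passed the filter on low counts only through day 6 and day 12 libraries, so they could be tested only by being high there. Podocyte markers summed to 65.9 to 77.8 TPM over all libraries, leukocyte markers to 13.2 to 24.4, endothelial markers to 5.88 to 13.9 and distal nephron markers to at most 3.02. In bulk RNA, fewer cells expressing a gene and less RNA per cell cannot be told apart, and the part of these shifts in the results below was not tested.

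Promoter windows, from 250 bases before to 50 after a transcript start, were read from RefSeq (mouse build GRCm38.p6) for all 7 genes, 14 windows in all. They were searched on both strands for the letters CAAAGTC (core of the HNF4 element), GTTAAT (HNF1) and GCGTGAC (PAX core), which occur in 4.44%, 7.1% and 2.09% of 32851 mouse promoter windows. A match was found in 1 window of each of 3 genes, always to CAAAGTC or its reverse complement GACTTTG, and none held either of the others. The windows of these genes are shown with that of Enpep, the gene that changed least by day 12 and whose window held no match, as was also the case for Anpep, Dpp4 and Mme. They run 5′ to 3′ along the gene's strand with the match in capitals.
Aoc1 (chr6:48895005-48895304, plus strand): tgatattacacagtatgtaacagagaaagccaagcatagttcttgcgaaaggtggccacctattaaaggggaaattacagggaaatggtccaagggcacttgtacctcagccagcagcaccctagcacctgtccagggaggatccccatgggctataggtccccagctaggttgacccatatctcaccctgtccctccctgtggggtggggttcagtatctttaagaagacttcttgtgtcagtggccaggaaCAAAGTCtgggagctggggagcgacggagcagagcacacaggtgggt
Ace (chr11:105967698-105967997, plus strand): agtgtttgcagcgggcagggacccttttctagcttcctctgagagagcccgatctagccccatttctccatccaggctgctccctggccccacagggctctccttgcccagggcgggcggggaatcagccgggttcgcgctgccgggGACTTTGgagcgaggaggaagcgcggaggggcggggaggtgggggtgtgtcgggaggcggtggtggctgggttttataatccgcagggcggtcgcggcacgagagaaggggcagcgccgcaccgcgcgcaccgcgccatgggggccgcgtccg
Ggt1 (chr10:75573245-75573544, plus strand): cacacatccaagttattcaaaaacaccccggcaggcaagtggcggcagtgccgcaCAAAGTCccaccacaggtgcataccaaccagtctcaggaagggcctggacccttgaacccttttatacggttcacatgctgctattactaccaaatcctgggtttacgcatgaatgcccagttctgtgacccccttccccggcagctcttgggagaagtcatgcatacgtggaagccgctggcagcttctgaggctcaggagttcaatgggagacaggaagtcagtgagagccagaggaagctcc
Enpep (chr3:129332700-129332999, minus strand): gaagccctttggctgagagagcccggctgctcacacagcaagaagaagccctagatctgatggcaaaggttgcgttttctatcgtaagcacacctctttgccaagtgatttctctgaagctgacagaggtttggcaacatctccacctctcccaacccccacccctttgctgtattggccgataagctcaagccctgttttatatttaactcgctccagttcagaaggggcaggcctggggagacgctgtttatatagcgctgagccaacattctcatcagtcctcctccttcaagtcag
In the Aoc1 window the match began at base 4 of the transcript, in that of Ace at base -103 and in that of Ggt1 at base -195. The Ggt1 window is 1 of 4 annotated for the gene, and those of Aoc1 and Ace are each 1 of 2. The other windows of these genes held no match, and counts per gene do not tell which start was used. A match of letters is no binding site, and no match says only that these letters are not in the window.

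On the TPM scale, which allows genes to be set beside each other, Mme was the most abundant of the 7 in control. It made up 28.8% ± 1.57 of their summed TPM (SD, n = 3), followed by Anpep with 22.2% ± 0.436, Aoc1 with 16.6% ± 1.53, Enpep with 15.8% ± 0.501 and Ggt1 with 13.02% ± 0.593. Aoc1 and Enpep overlapped in that order, and every other neighbouring pair was separate. Ace with 2.99% ± 0.502 and Dpp4 with 0.709% ± 0.173 were minor.

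The summed TPM of the 7 genes was 244.8 ± 13.7 in control, then 118.1 ± 2.66, 81.0 ± 6.49 and 74.9 ± 4.15 on days 2, 6 and 12. Its make-up changed with it. Enpep and Mme together held 44.5% ± 2.04 of the sum in control, 63.1% ± 2.62 on day 2, 83.1% ± 0.880 on day 6 and 85.5% ± 2.37 on day 12. The share of Aoc1 over the same groups was 16.6% ± 1.53, 7.19% ± 0.915, 1.69% ± 0.614 and 1.38% ± 0.558. At day 12 Enpep held 45.4% ± 0.708 and Mme 40.1% ± 2.34, so that Enpep had taken the first place from Mme, and the ranges of these shares did not overlap. Their TPM did overlap across libraries, at 32.58, 35.30 and 34.03 for Enpep and 28.83, 33.16 and 28.22 for Mme.

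**Figure D1:**
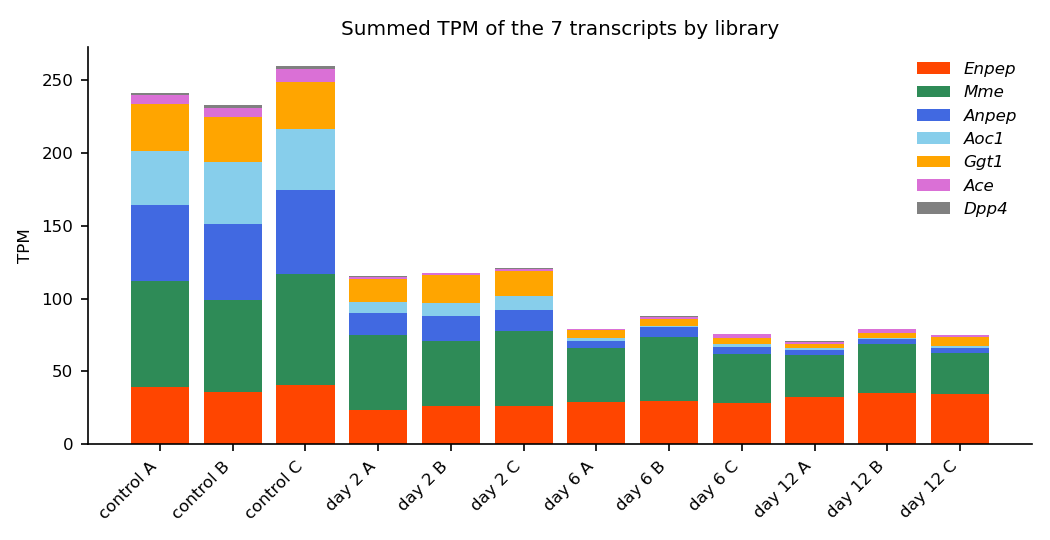
Stacked TPM (vertical axis) of the 7 genes in each of the 12 libraries (horizontal axis), coloured by gene. The mean sum goes from 244.8 in control to 74.9 at day 12, where Enpep and Mme hold 85.5% of it.

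Against control, 7 of the 7 genes were lower at an adjusted p under 0.05 (edgeR's quasi-likelihood test, Benjamini-Hochberg over 13513 tested genes) at day 2, where 10.9% of all tested genes were called lower. The same count was found at day 6, against 27.6% of all genes, and at day 12, against 26.6%. Dpp4 passed the filter on low counts only through the control libraries, so it could enter the test only by being high there. Without it, the other 6 of 6 were called lower at each day, with a median log2 change of -1.38, -3.21 and -2.80 at days 2, 6 and 12, and the median of all tested genes was -0.00154, -0.00602 and -0.00283.

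**Figure D2:**
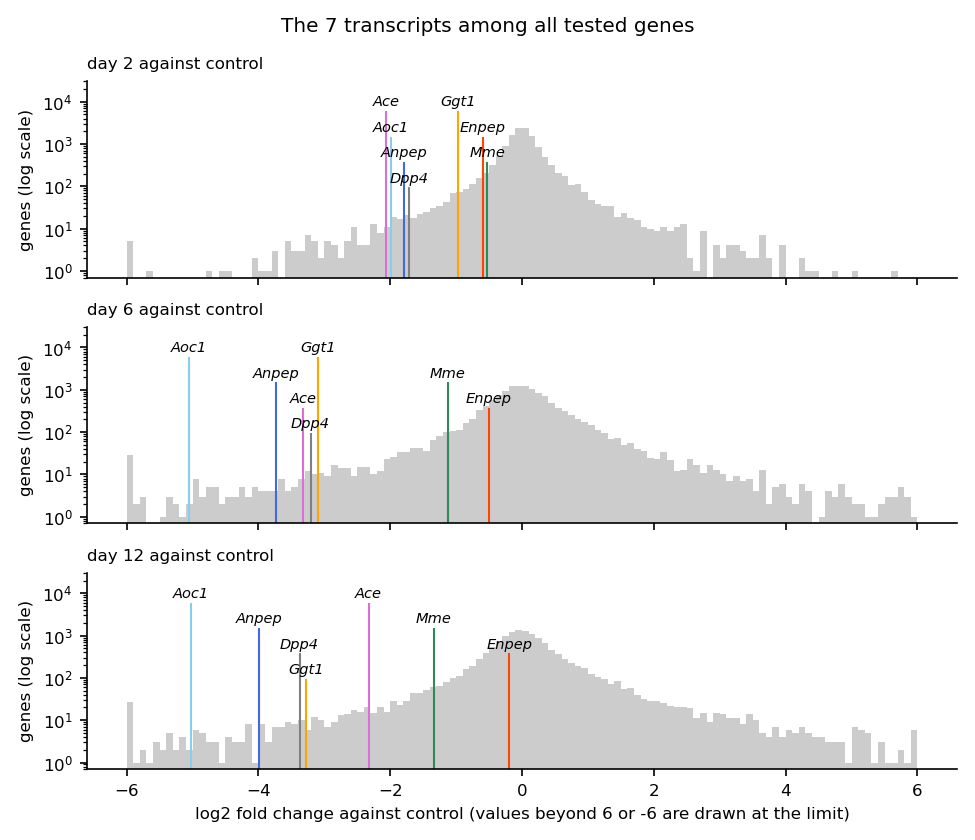
Histograms of the log2 fold change against control over the 13513 tested genes (number of genes on a log axis), one panel per day, with a line at each of the 7 genes. At day 6 the genes spread from Aoc1 at -5.06 to Enpep at -0.51.

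Of the aminopeptidases, Anpep fell to 6.25% of its control mean by day 12 and Enpep did not. Anpep stood at 111.0, 113.6 and 116.5 CPM in control libraries A, B and C, at 35.2, 33.4 and 30.7 on day 2, at 7.56, 8.73 and 9.60 on day 6 and at 6.88, 6.73 and 7.70 on day 12. Every control library lay above every day 2 library, and every day 2 library above every later one, while days 6 and 12 overlapped. Anpep was 3.46-fold lower at day 2 (log2 -1.79, SE 0.08, adjusted p = 4.89e-19), 13.3-fold lower at day 6 (log2 -3.73, SE 0.095, adjusted p = 9.26e-27) and 15.9-fold lower at day 12 (log2 -3.99, SE 0.097, adjusted p = 2.22e-27). Most of the fall after day 2 lay before day 6, by -1.94 (adjusted p = 2.31e-16). The step from day 6 to day 12 did not pass the test (log2 -0.26, 95% interval -0.55 to 0.02, adjusted p = 0.189). It passed with limma on log2(TPM + 1), at -0.49 with an adjusted p of 0.0311, and on log2(TPM + 0.1), at -0.58 with an adjusted p of 0.0245. The ratio of TPM to CPM of Anpep ran from 0.504 to 0.747 at day 6 and from 0.455 to 0.564 at day 12, and its part in these calls was not tested.

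Enpep, which in the circulation and kidney turns angiotensin II into angiotensin III, dipped and then came back close to control. Its libraries stood at 101.1, 93.5 and 96.3 CPM in control, at 61.9, 65.7 and 65.2 on day 2, at 69.0, 72.5 and 62.8 on day 6 and at 82.7, 88.8 and 83.1 on day 12. Days 2 and 6 overlapped, and the day 12 libraries lay above both and just below the control libraries. The gene was 1.51-fold lower at day 2 (log2 -0.60, SE 0.07, adjusted p = 2.23e-08), 1.42-fold lower at day 6 (log2 -0.51, adjusted p = 8.08e-08) and 1.14-fold lower at day 12 (log2 -0.19, SE 0.07, adjusted p = 0.0139).

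The day 12 difference of Enpep from control was small and depended on single libraries. Its adjusted p was 0.0643 without control A, 0.0575 without day 12 A and 0.0574 without day 12 C, and 0.0936 with limma on log2(TPM + 1). The return itself was larger. Enpep rose from day 2 to day 12 by 0.40 on the log2 scale (95% interval 0.26 to 0.55, adjusted p = 1.39e-05). In the 20 alternatives tried this rise was called each time and ran from 0.37 to 0.43, with an adjusted p of at most 0.00145. From day 6 to day 12 it rose by 0.31 (adjusted p = 7.82e-04), a step that missed the threshold with limma on log2(TPM + 1) (adjusted p = 0.0957).

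Dpp4, the dipeptidyl peptidase known for inactivating incretin hormones, was the scarcest of the 7 and rests on few counts. It had 36, 26 and 39 counts in the control libraries, 11, 3 and 14 at day 2, 1, 8 and 2 at day 6 and 4, 2 and 4 at day 12. In CPM these are 4.15, 3.60 and 4.08, then 1.50, 0.702 and 1.20, then 0.0994, 0.884 and 0.267, and last 0.467, 0.225 and 0.411. All control libraries lay above all others, and day 6 B lay within the range of day 2. Dpp4 was 3.29-fold lower at day 2 (log2 -1.72, SE 0.37, adjusted p = 5.45e-04), 9.26-fold lower at day 6 (log2 -3.21, SE 0.44, adjusted p = 1.13e-07) and 10.4-fold lower at day 12 (log2 -3.38, SE 0.44, adjusted p = 5.61e-08). Because it passed the filter on low counts only through the control libraries, these p-values are no independent support for a fall.

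The day 6 value of Dpp4 moved with single libraries, and its log2 change was -4.41 without day 6 B and -2.69 without day 6 A. The steps between treated days were weak for this gene. The fall from day 2 to day 6 (log2 -1.49, adjusted p = 0.0241) became -2.69 without day 6 B. Its adjusted p rose to 0.102 without day 2 A, 0.0673 without day 2 C, 0.169 without day 6 A and 0.0823 without day 6 C. From day 2 to day 12 the fall (log2 -1.66, adjusted p = 0.0144) had an adjusted p of 0.0679 without day 2 A and 0.0662 without day 12 B. On log2(TPM + 1) with limma the 2 steps were -0.05 and -0.10 with adjusted p of 0.877 and 0.767. The day 2 fall from control had an adjusted p of 0.0640 on log2(TPM + 0.1).

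Mme, the endopeptidase that degrades natriuretic peptides and enkephalins among others, fell in steps and kept a sizeable level. Its libraries stood at 223.0, 202.7 and 222.2 CPM in control, at 151.0, 149.0 and 149.2 on day 2, at 92.9, 114.6 and 89.0 on day 6 and at 84.8, 92.3 and 79.0 on day 12. Control, day 2 and day 6 were separate from each other, and day 12 overlapped day 6. Mme was 1.44-fold lower at day 2 (log2 -0.53, SE 0.07, adjusted p = 9.59e-07), 2.18-fold lower at day 6 (log2 -1.13, SE 0.07, adjusted p = 4.33e-14) and 2.53-fold lower at day 12 (log2 -1.34, SE 0.07, adjusted p = 7.37e-16).

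The step of Mme from day 2 to day 6 was -0.60 on the log2 scale (adjusted p = 1.19e-07). That from day 6 to day 12 was -0.21 (95% interval -0.37 to -0.06, adjusted p = 0.0437) and lay at the edge of the test. It was -0.09 with an adjusted p of 0.430 without day 6 B, the highest Mme library of its group. The adjusted p was 0.0501 without control A, 0.0546 without control C, 0.0977 without day 12 A and 0.189 without day 12 C. It was 0.0525 with DESeq2, 0.0710 with limma on log2(TPM + 1) and 0.0717 with only the 2 groups in the fit.

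Ace, which turns angiotensin I into angiotensin II, was lowest at day 6 and higher again at day 12. Its libraries stood at 16.9, 18.4 and 21.3 CPM in control, at 5.58, 3.51 and 4.27 on day 2, at 1.39, 2.43 and 1.87 on day 6 and at 3.27, 4.94 and 3.08 on day 12. The day 6 libraries lay below all others, and days 2 and 12 overlapped. Ace was 4.16-fold lower at day 2 (log2 -2.06, SE 0.19, adjusted p = 1.00e-10), 9.98-fold lower at day 6 (log2 -3.32, SE 0.21, adjusted p = 2.10e-15) and 5.03-fold lower at day 12 (log2 -2.33, SE 0.19, adjusted p = 7.78e-13).

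From day 6 to day 12 Ace rose 1.99-fold (log2 0.99, SE 0.27, 95% interval 0.45 to 1.53, adjusted p = 0.00637). This rise had an adjusted p of 0.0649 without day 6 A and 0.0825 without day 12 B. On the TPM scale it was not seen as clearly: Ace TPM was 0.470, 1.10 and 2.47 at day 6 and 1.63, 2.52 and 1.48 at day 12, and the groups overlapped. The ratio of TPM to CPM of Ace ran from 0.338 to 1.32 among the day 6 libraries, against 0.350 to 0.435 in control, and this ratio varies with the transcript lengths that the authors' estimate assigned to each library. With limma on log2(TPM + 1), the rise was 0.37 (adjusted p = 0.442) and the fall from day 2 to day 6 was -0.32 (adjusted p = 0.387), where counts gave -1.26 (adjusted p = 1.97e-04). Hnf4a, a nuclear receptor of proximal tubule and liver, averaged 12.8 CPM ± 2.99 in control, 1.03 ± 0.529 on day 2, 0.303 ± 0.167 on day 6 and 2.05 ± 0.718 on day 12, and its part in the Ace values was not tested.

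Ggt1 kept 51.5% of its control mean at day 2 and 11.9% at day 6. Its libraries stood at 25.7, 23.9 and 28.5 CPM in control, at 10.9, 15.0 and 14.4 on day 2, at 3.08, 2.32 and 3.87 on day 6 and at 2.68, 2.81 and 2.57 on day 12. Control, day 2 and the later days were separate, and days 6 and 12 overlapped. Ggt1 was 1.95-fold lower at day 2 (log2 -0.97, SE 0.14, adjusted p = 1.03e-06), 8.52-fold lower at day 6 (log2 -3.09, SE 0.17, adjusted p = 2.42e-17) and 9.69-fold lower at day 12 (log2 -3.28, SE 0.17, adjusted p = 6.18e-18). The fall from day 2 to day 6 alone was 4.36-fold (log2 -2.13, adjusted p = 1.32e-11). Ggt1 has 20 annotated transcripts, and its ratio of TPM to CPM ran from 1.11 to 2.34 over the day 12 libraries, so its TPM is less even than its counts.

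Aoc1 fell furthest. Its libraries stood at 47.9, 58.0 and 53.9 CPM in control, at 11.8, 15.0 and 13.7 on day 2, at 1.59, 1.33 and 1.87 on day 6 and at 1.87, 0.898 and 2.05 on day 12. Control and day 2 were separate from each other and from the later days, which overlapped. Aoc1 was 3.98-fold lower at day 2 (log2 -1.99, SE 0.12, adjusted p = 5.10e-15), 33.4-fold lower at day 6 (log2 -5.06, SE 0.17, adjusted p = 2.88e-23) and 32.6-fold lower at day 12 (log2 -5.03, SE 0.17, adjusted p = 2.17e-23). Counted from the most negative log2 change at day 6, it was gene 42 of the 13513 tested. Between days 6 and 12 it differed by 0.03 (95% interval -0.59 to 0.65, adjusted p = 0.958).

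**Figure D3:**
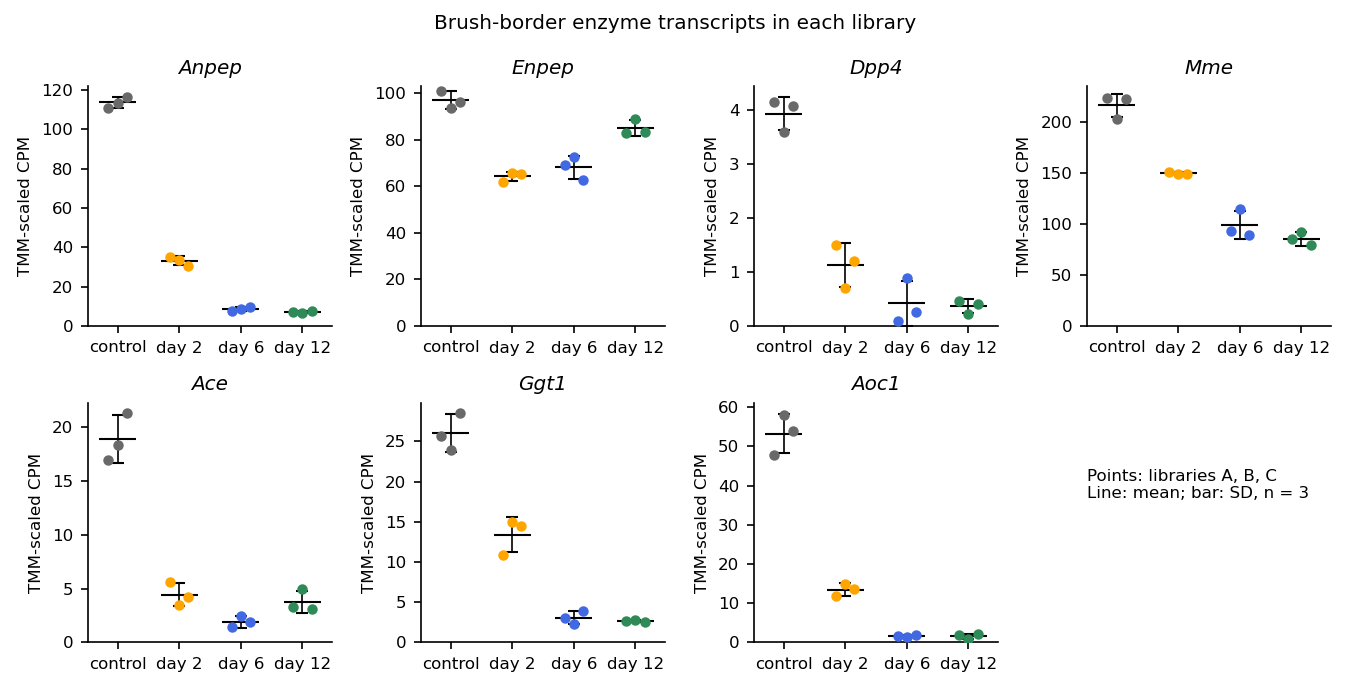
CPM of each of the 7 genes (linear axes from 0, scaled per gene) in the 3 libraries of each group, with the mean as a line and the SD as a bar. Aoc1, Anpep, Ggt1 and Dpp4 lie near their lowest level from day 6 on, Ace goes from 1.90 CPM at day 6 to 3.76 at day 12, and Enpep from 64.3 CPM at day 2 to 84.9 at day 12.

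The 7 genes thus followed different courses, read here from 95% intervals with no further test. At day 2 the intervals of Aoc1 (-2.25 to -1.74), Ace (-2.44 to -1.67), Anpep (-1.95 to -1.63) and Dpp4 (-2.47 to -0.97) overlapped each other. Those of Enpep (-0.74 to -0.45) and Mme (-0.68 to -0.38) overlapped each other and none of these 4, and Ggt1 (-1.25 to -0.69) overlapped Dpp4 and Enpep. At day 6 Aoc1 (-5.41 to -4.71) lay below all others. Anpep, Dpp4, Ace and Ggt1 formed a group between -4.10 and -2.33 in which only Anpep and Ggt1 were apart. At day 12 the interval of Mme was -1.49 to -1.19 and that of Enpep was -0.33 to -0.06, and both stood apart from each other and from all the rest. Ace (-2.71 to -1.95) then lay above Anpep, Ggt1 and Aoc1.

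**Figure D4:**
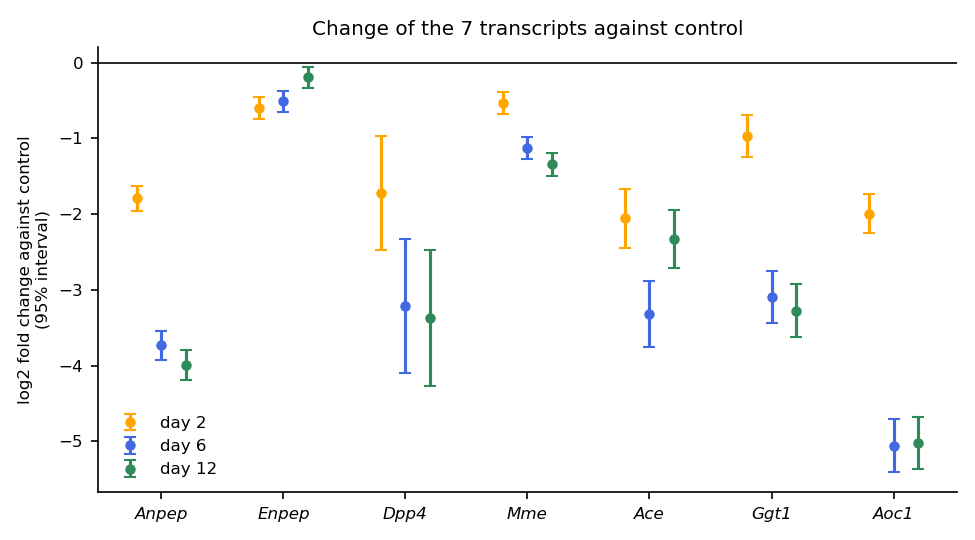
Log2 fold change against control (vertical axis) of each gene at days 2, 6 and 12, with 95% intervals from edgeR. Mme falls to -1.34 and Enpep returns to -0.19 by day 12, and Aoc1 reaches -5.06 at day 6.

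Between treated days, 6 of the 7 genes (5 of 6 without Dpp4) were lower at day 6 than at day 2, where 22.3% of all genes were called lower, and Enpep did not pass (log2 0.09, 95% interval -0.06 to 0.23). From day 6 to day 12 only Mme was called lower, where 11.0% of all genes were, and Enpep and Ace were called higher, where again 11.0% were. At day 12 against day 2, 5 were lower (4 without Dpp4, and 21.6% of all genes) and Enpep was higher (22.3%), and Ace did not pass (log2 -0.27, 95% interval -0.75 to 0.20). As a measure of likeness, the root-mean-square difference in log2 CPM relative to control (prior count 2) was taken over the 9 treated libraries. It was 0.758 between Enpep and Mme and largest, at 3.82, between Enpep and Aoc1. The place of Dpp4, which has few counts, depended on the measure. By this one it lay 0.594 from Ace and 0.798 from Ggt1, while over the 3 fitted log2 changes against control it lay 0.638 from Ace and 0.444 from Ggt1.

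Other genes traced some members closely. Among 10496 genes compared over the same 9 libraries, Nup210 (0.122), encoding a nuclear pore protein, was nearest to Mme. Aff1 (0.0993) and Cd24a (0.104) were nearest to Enpep. Cdh1 (0.291), which encodes the epithelial adhesion protein E-cadherin, was nearest to Ggt1: it averaged 27.4 CPM ± 2.62 in control, 17.4 ± 3.99 on day 2, 3.14 ± 0.193 on day 6 and 2.68 ± 0.120 on day 12. Mal (0.375), encoding an apical sorting protein, was nearest to Aoc1, with 96.8 CPM ± 5.40 in control and 3.14 ± 0.391 at day 12, and Lipg (0.402), an endothelial lipase, came next. Sema5a (0.379) was nearest to Anpep, Ackr3 (0.370), a chemokine-binding receptor, to Ace, and Phyhipl (0.407) to Dpp4. These neighbours were picked for their likeness, which is a description over libraries that share their controls.

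The enzyme families of the members did not follow them as a whole. For this and each list below, the counts stand against 10.9% of all genes called lower and 10.3% called higher at day 2. These shares were 27.6% and 26.7% at day 6, and 26.6% and 26.1% at day 12. Of 7 other tested M1 aminopeptidases, the family of Anpep and Enpep, 1 rose at day 2, where 10.3% of all genes were called higher. At day 6, 3 fell and 3 rose, where 26.7% of all genes were called higher, and at day 12, 2 fell and 3 rose, where 26.1% were. The day 2 call was lost without control A or day 2 B, and with limma on log2(TPM + 1) or log2(TPM + 0.1). At day 12, 1 fell and 2 rose without control A or day 12 B, 1 fell and 3 rose without day 12 C, and with limma on log2(TPM + 1) 1 fell at each of days 6 and 12. Lta4h, which makes leukotriene B, was the unstable fall at day 12 (log2 -0.21, adjusted p = 0.0217, and 0.133, 0.0682 and 0.177 without control A, day 12 B and day 12 C). Aopep rose from 30.5 CPM ± 1.71 in control to 79.4 ± 7.71 at day 6 (log2 1.38, SE 0.08, adjusted p = 3.79e-16). Rnpep, a cytosolic aminopeptidase B, fell from 50.5 ± 1.17 to 31.4 ± 1.57 (log2 -0.69, SE 0.08, adjusted p = 1.05e-08). The day 6 changes of Aopep and Rnpep were far smaller than that of Anpep (log2 -3.73). They were larger in size than that of Enpep (log2 -0.51), with no test between genes.

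Of 5 other tested genes of the DPP4 family and prolyl peptidases, 2 fell and 1 rose at day 6, and 2 fell and 2 rose at day 12. Neither day 6 fall was called by limma on log2(TPM + 1), and without day 2 A 1 fell at day 2. The lysosomal Dpp7 rose from 26.8 CPM ± 2.83 in control to 54.2 ± 2.85 at day 6 (log2 1.01, SE 0.09, adjusted p = 1.79e-11) and Prep, a cytosolic prolyl endopeptidase, fell by 0.34 on the log2 scale at day 12 (adjusted p = 5.76e-05). Ece1, the only other tested member of the neprilysin family and the enzyme that makes endothelin, went from 137.9 CPM ± 6.76 in control to 248.5 ± 9.63 at day 12 (log2 0.85, SE 0.06, adjusted p = 1.14e-14), opposite to Mme. On log2(TPM + 1) with limma the Ece1 difference was 0.64 with an adjusted p of 0.599.

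Among the renin-angiotensin genes, Ace and the precursor Agt were both low after treatment. Of 3 other tested genes of the list, 1 fell at day 2, and 2 fell and 1 rose at each of days 6 and 12. With limma on log2(TPM + 1) 1 fell at each of these days, and without control A 1 also rose at day 2. Agt, which encodes angiotensinogen, averaged 106.0 CPM ± 4.75 in control, 28.9 ± 0.918 on day 2, 43.2 ± 4.06 on day 6 and 23.6 ± 1.76 on day 12 (day 12 log2 -2.17, SE 0.08, adjusted p = 8.04e-22). Agt therefore stood higher at day 6 than at day 2 (log2 0.57, adjusted p = 2.75e-06), where Ace stood lower. Atp6ap2, the gene of the prorenin receptor, rose from 208.7 CPM ± 9.91 in control to 313.7 ± 14.7 at day 6 (log2 0.59, SE 0.06, adjusted p = 1.19e-10).

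Around Aoc1, the genes of polyamine and amine turnover went in both directions. Of 14 other tested genes, 2 fell and 3 rose at day 2, where 10.9% of all genes were called lower and 10.3% higher. At each of days 6 and 12, 6 fell and 5 rose, against 27.6% and 26.7% of all genes at day 6 and 26.6% and 26.1% at day 12. Aoc3, which is among these rises, passed the filter on low counts only through the day 12 libraries. At day 2, 5 rose without day 2 C. Odc1, which makes putrescine, averaged 210.5 CPM ± 3.28 in control, 101.0 ± 8.26 on day 2, 64.6 ± 3.31 on day 6 and 85.7 ± 9.50 on day 12. Odc1 was lower at each day, by -1.70 at day 6 (SE 0.07, adjusted p = 1.24e-20). Azin1, which shields Odc1 from breakdown, fell from 553.3 CPM ± 33.7 in control to 241.8 ± 19.7 at day 6 (log2 -1.19, SE 0.06, adjusted p = 2.03e-18). Sat1, the acetyltransferase that starts polyamine breakdown and export, rose from 35.8 CPM ± 1.97 in control to 165.5 ± 3.08 at day 12 (log2 2.21, SE 0.07, adjusted p = 1.77e-23). Maoa, a mitochondrial amine oxidase, rose from 40.8 ± 3.98 to 97.5 ± 2.10 (log2 1.26, SE 0.08, adjusted p = 4.91e-16).

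Of 10 other tested genes of the gamma-glutamyl cycle, the setting of Ggt1, 1 fell and 3 rose at day 2, 6 fell and 1 rose at day 6, and 5 fell and 2 rose at day 12. At day 6, 2 rose without control A, day 2 B, day 2 C or day 6 B. With limma on log2(TPM + 1) 1 rose at day 2, and 3 fell at each of days 6 and 12. Ggt6, a relative of Ggt1, fell from 4.39 CPM ± 0.486 in control to 1.35 ± 0.461 at day 6 (log2 -1.69, SE 0.29, adjusted p = 8.66e-06) and stood at 4.50 ± 0.775 at day 2. Cndp2, the peptidase that cuts the cysteinylglycine left by Ggt1, fell from 53.5 ± 6.92 to 28.9 ± 3.46 at day 2 (log2 -0.85, SE 0.10, adjusted p = 9.02e-08). Chac1, an intracellular glutathione-degrading enzyme, fell from 12.3 ± 0.553 to 5.86 ± 0.802 at day 6 (log2 -1.07, SE 0.15, adjusted p = 2.50e-07).

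Of 5 tested genes for other brush-border hydrolases, 2 fell at day 2, 4 fell at day 6 (2 with limma on log2(TPM + 1)), and 2 fell and 2 rose at day 12. Nt5e, the ectonucleotidase that makes adenosine, fell at every step, from 73.5 CPM ± 3.80 in control to 25.1 ± 1.55, 12.96 ± 0.903 and 6.47 ± 1.38 (day 12 log2 -3.50, SE 0.11, adjusted p = 5.87e-24). Cpm, a carboxypeptidase of the membrane, dipped like Enpep and then passed its control level: it averaged 116.4 CPM ± 7.67 in control, 47.6 ± 2.83 on day 2, 98.7 ± 4.54 on day 6 and 187.3 ± 5.81 on day 12 (day 12 log2 0.68, SE 0.06, adjusted p = 1.14e-11). The alkaline phosphatase gene Alpl stood at 65.9 CPM ± 3.71 in control and 96.6 ± 6.94 at day 12 (log2 0.55, SE 0.08, adjusted p = 1.26e-07). Its day 6 call (log2 -0.21, adjusted p = 0.0218) is among the 4, and was lost without control A (adjusted p = 0.109), day 6 B (0.0886) or day 6 C (0.107). With limma on log2(TPM + 1) the day 6 difference of Alpl was 0.015, of the opposite sign.

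Of 12 tested genes of the brush-border scaffold, 6 fell at day 2, 8 fell and 3 rose at day 6, and 5 fell and 2 rose at day 12. Among the falls, Pdzk1 and Myo7b passed the filter on low counts only through the control libraries. Like Dpp4, they could thus enter the test only by being high there, and their falls do not bear on the comparison with all genes. The other falls at day 2 were Vil1, Slc9a3r1, Cdhr2 and Cdhr5. At day 6 they were Vil1, Ezr, Slc9a3r1, Cdhr2, Ush1c and Espn, and at day 12 Vil1, Ezr, Slc9a3r1 and Espn. At day 2, 4 fell without control B, and 1 also rose without control A, control B or day 2 B, and with RLE size factors. With limma on log2(TPM + 1) 3 fell at day 2 and 4 at day 6. Pdzk1, an apical anchor for transporters, fell from 8.29 CPM ± 0.0235 in control to 0.757 ± 0.245 at day 2 (log2 -3.34, SE 0.33, adjusted p = 5.71e-10), and its last 2 groups held only 3 and 1 counts. Ezr, which links the membrane to actin, stood at 592.5 CPM ± 19.7 in control and 409.5 ± 16.7 at day 12 (log2 -0.53, SE 0.05, adjusted p = 1.68e-10). Eps8, an actin-capping protein of microvillus tips, rose from 29.2 ± 2.15 to 68.5 ± 4.65 at day 6 (log2 1.23, SE 0.08, adjusted p = 7.88e-15), and Prom1, a protein of membrane protrusions, rose from 769.9 ± 25.7 to 1220 ± 35.1 at day 6 (log2 0.66, SE 0.06, adjusted p = 1.30e-11).

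**Figure D5:**
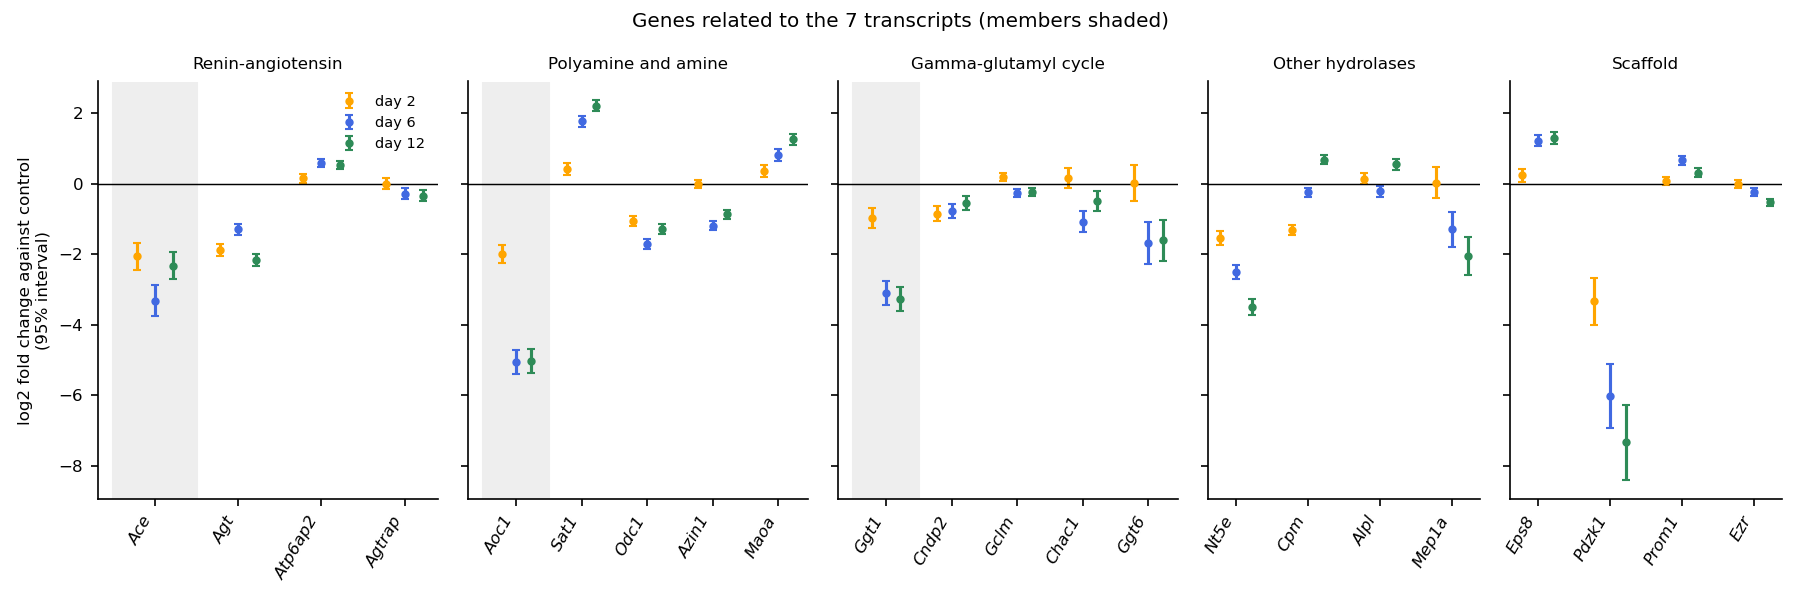
Log2 fold change against control with 95% intervals at days 2, 6 and 12 for Ace, Aoc1 and Ggt1 (shaded) and up to 4 related genes of 5 lists. Agt and Ace are both below control at each day but differ in course, Sat1 and Maoa are higher where Aoc1 and Odc1 are lower, Cpm and Alpl are higher at day 12, and the day 6 and day 12 points of Pdzk1 rest on 3 and 1 counts.

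In the mouse genome (build GRCm38, annotation GENCODE M21), Anpep spans chr7:79821803-79861059, Enpep chr3:129269175-129332720 and Dpp4 chr2:62330073-62412231, all on the minus strand. On the plus strand lie Mme at chr3:63241537-63386030, Ace at chr11:105967945-105989964, Ggt1 at chr10:75561604-75586200 and Aoc1 at chr6:48872896-48909188. The counts sum reads over each gene's transcripts, and the sources used here do not say whether strand was used. Anpep, Enpep, Dpp4 and Ace each overlap 1 predicted gene, and these held 3, 8, 0 and 0 counts over the 12 libraries.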

How the data were processed

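Polyadenylated RNA from 12 libraries of 4 groups was analysed. The authors deposited whole-number expected counts and, separately, TPM per gene. Per the submitters' processing notes, cutadapt 2.3, FastQC 0.11.8, STAR 2.7.8a, RSEM 1.3.3 and GRCm38 were used. Annotation, strand setting and filters are not given in the sources used here. RSEM divides reads between transcripts, so TPM depends on the estimated transcript lengths, and 34 to 60 genes per library have 0 counts with TPM above 0.

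Each gene name was matched exactly in both tables. Deposited counts were tested with edgeR 4.0.16 (R 4.3.3): filterByExpr by group kept 13513 of 55491 genes, TMM scaling, robust quasi-likelihood fit of all 12 libraries in 1 model by group (8 residual degrees of freedom; a biological coefficient of variation of 0.0577), two-sided tests, Benjamini-Hochberg adjustment over all tested genes and a threshold of 0.05. SE is the log2 change divided by the root of F. CPM are scaled by TMM. Intervals are 95% intervals of the fit. The pipeline was tested on simulated data. No libraries differed by as little as sampling noise.

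Named were the 7 genes, Pax8, Pax2 (as a check of the labelled genotype, added after its values were seen), up to 4 genes of each related list with the smallest p across groups, the 2 genes most alike each member (log2 CPM relative to control, prior count 2, mean of at least 5 CPM) and marker genes. Not every gene this rule allows is described, and 1 gene of the lists is not reported here and was left out of their counts. Members and lists were chosen with earlier results of these data known. Alternatives were DESeq2 1.42.0, limma 3.58.1 on log2(TPM + 1) and log2(TPM + 0.1), other scalings, no filter, 2-group fits, a replicate block and leaving out each library. Counts and medians without Dpp4, likeness over fitted changes and list counts under these alternatives were added after seeing the data. The letters A, B and C were checked as pairs and treated as names.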

Additional observations from a re-analysis of the deposited data

Results flagged for a closer look

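The following differences between treated days passed the test of the difference itself (edgeR, 2 treated days compared directly, adjusted p under 0.05), so the change against control was not the same size at both days. From day 2 to day 6 the log2 difference was -1.94 for Anpep, -1.49 for Dpp4, -0.60 for Mme, -1.26 for Ace, -2.13 for Ggt1 and -3.07 for Aoc1. From day 2 to day 12 it was -2.20 for Anpep, -1.66 for Dpp4, -0.81 for Mme, -2.31 for Ggt1 and -3.04 for Aoc1, and 0.40 in the other direction for Enpep. From day 6 to day 12 it was -0.21 for Mme, 0.31 for Enpep and 0.99 for Ace. These comparisons share libraries. Both Dpp4 values, both Ace values and the day 6 to day 12 values of Mme and Enpep lost their call under at least 1 other setting or without a single library. Dpp4 also passed the filter on low counts only through the control libraries.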

How the results depend on the processing

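Over 837 recomputed log2 changes of the 7 genes, 802 kept direction and side of the threshold, 33 fell below it, 2 passed it and 0 of those called changed sign. Against control at day 6, 7 genes were called under each of the 20 alternatives. At day 2, 6 were called with limma on log2(TPM + 0.1), where Dpp4 did not pass. At day 12, 6 were called with both limma settings and without control A, day 12 A or day 12 C, where Enpep did not pass. The replicate block left the count of called genes among the 7 as it was in each comparison, and called 2932 genes at day 2, where the fit without it called 2860. In the related lists it added 1 rise at day 2 among the renin-angiotensin genes and 1 in the scaffold. Same-letter libraries deviated with correlations of -0.149 to 0.111 (median 0.000139), so the letters give no pairs. limma on log2(TPM + 1) and log2(TPM + 0.1) called 1744 and 1712 genes at day 2 against control. From day 6 to day 12 they called 1364 and 1297 where edgeR called 2971, and 1 of the 7 (Anpep) where edgeR called 3. They put the median of all genes from day 2 to day 6 at 0.115 and 0.130, where edgeR put it at -0.00173. On log2(TPM + 1), 2182 genes were lower and 3542 higher at day 6 against control (edgeR 3729 and 3614), 1376 and 3360 from day 2 to day 6 (3007 and 3055), 868 and 496 from day 6 to day 12 (1489 and 1482), and 1566 and 2675 from day 2 to day 12 (2922 and 3009). Fold changes of low genes are understated there. At day 6 the log2 change was -1.91 for Ace, -2.42 for Ggt1, -3.12 for Anpep and -4.16 for Aoc1. The median ratio of TPM to CPM of these genes was also higher at day 6 than in control. It was 0.452 against 0.376 for Ace, 1.97 against 1.26 for Ggt1, 0.646 against 0.472 for Anpep and 0.862 against 0.773 for Aoc1. How much of the gap from edgeR lay in this ratio was not tested. Alpl at day 6 turned from -0.21 to 0.015 with both. The cause was not tested. Depth limits Dpp4 most, which held at most 8 counts in any library after day 2, and it did not enter the 2-group fits between treated days.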
